A study of Mus musculus with 2 samples.

Results

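Il13-expressing lymphocytes of house dust mite-treated mouse skin were described in single-cell RNA data from CD45+ cells, that is, leukocytes. A cell was taken when it held at least 2 unique molecular identifiers (UMIs, each 1 captured RNA molecule) of Il13 and no UMI of the macrophage genes C1qa, C1qb and C1qc. It also had no UMI of the basophil genes Mcpt8 and Cd200r3, none of the regulatory T cell factor Foxp3, and at most 1 UMI over the gamma-delta T cell genes Cd163l1, Blk and 5830411N06Rik. Of 26553 cells with at least 500 UMIs, at least 250 genes and under 10% mitochondrial UMIs, 321 met the rule. These were 163 of 11934 cells in the wild-type (WT) library and 158 of 14619 cells in the library labelled IL31RAKO. Cells with a UMI of Cd3d, Cd3e or Cd3g, subunits of the T cell receptor complex, numbered 158 and 151 and are called Cd3-positive. The other 5 and 7 cells had none and are called Cd3-zero, the candidates for innate cells.

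Both groups were C57Bl/6 mice. One group was WT, and the other lacked the IL-31 receptor alpha chain (IL31RAKO). All had Biostir ointment, an extract of the mite D. farinae, put on shaved back skin 2 times a week for 3 weeks, after 2% SDS given 2 hours earlier, so no untreated skin was compared. Dorsal neck skin of 4 mice per group was pooled before live CD45+ cells were sorted, which left 1 library per group. With 1 library per group no test between the genotypes was possible, and the intervals given below, all at 95%, cover counting error only. The question of the study was the part that IL-31 plays in this inflammation.

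The kept cells had a median of 2918.5 UMIs in the WT and 3181 UMIs in the IL31RAKO library. Il31ra itself had 11 UMIs in 11 WT cells and 26 UMIs in 26 IL31RAKO cells. The labels used here do not say which part of the gene was removed, and the kit reads the 3′ end, so these UMIs do not check the genotype. The Il13-expressing lymphocytes held 0 WT and 1 IL31RAKO UMI of Il31ra, and none of Osmr, the other chain of the receptor. There were 247 barcodes found among the kept cells of both libraries, and 4 WT and 2 IL31RAKO cells described here carried such a barcode.

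IL-13 is a cytokine of type 2 inflammation. In skin it acts on keratinocytes, fibroblasts and sensory neurons. Its best known lymphoid sources are helper T cells and group 2 innate lymphoid cells, both driven by the transcription factor GATA3, and CD8 T cells that make it are also known. IL-17A and IL-17F are the main cytokines of type 17 lymphocytes, which depend on the retinoic acid receptor-related orphan receptors (ROR). IL-17A calls neutrophils to the tissue through epithelial cells.

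The stretches upstream of Il13 and Il17a are shown because the cells below carried RNA of both genes, and of Gata3 and Rora, whose proteins bind the motifs marked. Il13 lies on the minus strand at chr11:53631324-53634702 and Il17a on the plus strand at chr1:20730905-20734496 (mm10). The sequences are the 250 bases before each start, from RefSeq (GRCm38.p6), 5′ to 3′ on the gene's strand, at chr11:53634703-53634952 and chr1:20730655-20730904. Capitals mark matches on either strand. The GATA motif was searched as TGATAA and in its other common form as AGATAA. The ROR half-site was searched as AGGTCA. The AP-1 motif was searched as TGAGTCA.
Il13: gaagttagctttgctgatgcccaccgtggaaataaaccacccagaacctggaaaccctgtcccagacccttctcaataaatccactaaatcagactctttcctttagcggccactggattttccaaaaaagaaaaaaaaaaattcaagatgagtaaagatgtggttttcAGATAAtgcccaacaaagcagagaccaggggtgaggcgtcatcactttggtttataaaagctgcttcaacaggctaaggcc
Il17a: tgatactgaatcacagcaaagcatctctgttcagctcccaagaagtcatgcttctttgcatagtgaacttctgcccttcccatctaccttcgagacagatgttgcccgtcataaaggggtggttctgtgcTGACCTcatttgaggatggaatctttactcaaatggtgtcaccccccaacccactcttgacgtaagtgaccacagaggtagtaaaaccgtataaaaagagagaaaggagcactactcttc
The Il13 stretch held 1 GATA match and no other match. The Il17a stretch held 1 ROR half-site, read on the minus strand, and no other match. Among 32851 promoters of the same length, 16.6% held the GATA motif, 14.0% the ROR half-site and 4.46% the AP-1 motif, so such matches are common and mark no site of binding.

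Il13 was spread thinly over the cells that had it. The median cell held 3 Il13 UMIs in both libraries, and the highest held 39 UMIs in WT and 24 UMIs in IL31RAKO. At the edge of the rule, 70 WT and 67 IL31RAKO cells had exactly 2 UMIs. Just outside it, 249 WT and 236 IL31RAKO Cd3-positive cells that passed the other clauses had 1 UMI. All Il13-expressing lymphocytes together held 651 of 1780 Il13 UMIs of the kept WT cells (36.6%) and 593 of 2793 of the IL31RAKO cells (21.2%).

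The C1q clause removed the most Il13-high cells. Of 305 WT and 453 IL31RAKO cells with at least 2 Il13 UMIs, 118 and 250 failed only that clause. The basophil clause alone removed 5 and 8 cells, the gamma-delta clause alone 7 and 5, and Foxp3 alone 1 and 3. In barcodes of 10 to 50 UMIs, which carry free RNA, the C1q genes stood at 1805 CPM (UMI counts scaled to the same total in every sum of cells) in WT and 1579 CPM in IL31RAKO, so a cell can hold a C1q UMI without making it. The cells that failed only the C1q clause and were Cd3-positive, 114 and 233 in number, took no part in the choice of the cells described. Il17a was found in 78.1% of them in WT and 71.7% in IL31RAKO, Cd8b1 in 66.7% and 67.0%, and Il5 in 11.4% and 8.58%.

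The share of these cells differed between the libraries in a direction that depended on the denominator. Among all kept cells the share was 1.37% (1.17 to 1.59%) in WT and 1.08% (0.920 to 1.26%) in IL31RAKO, a ratio of 0.791 (0.632 to 0.991). Among Cd3-positive cells that passed the same exclusions it was 3.63% (3.09 to 4.23%) in WT and 4.62% (3.93 to 5.40%) in IL31RAKO, a ratio of 1.27 (1.01 to 1.60). Cells with at least 2 Il13 UMIs, with no exclusion, numbered 305 of 11934 and 453 of 14619, a ratio of 1.21 (1.05 to 1.41). When up to 2 C1q UMIs were allowed, an alternative chosen after seeing the data, the ratio over all kept cells turned to 1.08. C1q-positive cells, with at least 3 C1q UMIs and no Cd3 UMI, numbered 876 in WT and 1982 in IL31RAKO, and their part in these ratios was not tested.

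The label of these cells as Il13-expressing lymphocytes was held against 5 marker genes, of which Il13 chose them. Rora, an ROR family factor of type 2 innate and type 17 cells, was found in 69.0% of the Cd3-positive WT cells and 74.2% of the IL31RAKO cells. Areg, which encodes the epithelial growth factor amphiregulin, was found in 49.4% and 39.7%. Gata3 was found in 35.4% and 35.1%, or 15.4% and 12.2% after thinning against 6.89% and 7.14% of cells with no Il13. The thinned intervals overlapped in IL31RAKO (7.42 to 18.7% against 6.17 to 8.22%) but not in WT. Il5, the eosinophil growth cytokine encoded near Il13, was found in 3.16% and 1.99%. The Cd3-positive cells had a median of 14 Cd3 UMIs in WT and 13 in IL31RAKO. Of markers of other cell types, the 5 natural killer cell markers summed to 1.62 CPM in WT and 0 CPM in IL31RAKO, with Ncr1 and Eomes at 0 in both. The 5 basophil markers summed to 4.86 and 3.17 CPM, with Mcpt8, Cd200r3 and Ms4a2 at 0, the first 2 of these by the rule. The 7 dendritic cell markers summed to 4607 and 4243 CPM and had a UMI in every one of the cells, with Xcr1 at 0. The macrophage markers summed to 539 and 832 CPM, the neutrophil markers to 58.3 and 467 CPM, and the mast cell markers to 24.3 and 66.5 CPM. Of the mast cell markers in IL31RAKO, 19 UMIs of Hdc and 3 of Cpa3 came from 1 Cd3-zero cell. In free RNA the dendritic markers stood at 28373 and 26312 CPM and the macrophage markers at 9703 and 8037 CPM.

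Most Cd3-positive Il13-expressing cells carried CD8 rather than CD4 transcripts. A UMI of Cd8a or Cd8b1, the chains of the CD8 coreceptor of cytotoxic T cells, with none of Cd4 was found in 102 of 158 WT cells (64.6%, 56.6 to 72.0%) and 98 of 151 IL31RAKO cells (64.9%, 56.7 to 72.5%). Among Cd3-positive cells with no Il13 UMI the shares were 37.3% of 3947 WT and 35.1% of 2881 IL31RAKO cells. Cd4, the coreceptor of helper T cells, without Cd8 was found in 7 WT and 9 IL31RAKO cells, and 48 and 38 cells had neither. Read the other way, at least 2 Il13 UMIs were found in 6.02% (4.94 to 7.27%) of WT and 7.94% (6.49 to 9.59%) of IL31RAKO Cd8-only cells. In Cd4-only cells the shares were 3.76% (1.53 to 7.60%) and 6.04% (2.80 to 11.2%), and in cells with neither 1.98% and 2.07%. The intervals of Cd8-only and Cd4-only cells overlapped in both libraries. The cells without Il13 were shallower, with median depths of 2485 and 2403 UMIs against 3318 and 3486 UMIs, so shares of cells with a UMI are also given after thinning each cell to 1000 UMIs. Thinned, Cd8b1 was found in 31.4% (24.2 to 39.3%) of WT and 23.8% (17.2 to 31.5%) of IL31RAKO Il13-expressing cells, against 18.9% (17.6 to 20.3%) and 17.9% (16.4 to 19.4%) of those with no Il13. Thinned Cd8a was found in 19.9% and 24.5%, against 13.6% and 14.6%. The intervals thus overlapped for Cd8b1 in IL31RAKO and for Cd8a in WT, and not for the other 2 pairs.

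Type 17 cytokines were found beside Il13 in most of these cells. Il17a was found in 118 of 158 WT cells (74.7%, 67.2 to 81.3%) and 100 of 151 IL31RAKO cells (66.2%, 58.1 to 73.7%). In Cd3-positive cells with no Il13 UMI it was found in 47.3% and 32.6%, and in C1q-positive Cd3-zero cells, which should lack it, in 20.2% and 17.1%, at median depths of 2259.5 and 3114.5 UMIs. After thinning, Il17a was found in 53.8% and 50.3% of the Il13-expressing cells, in 32.7% and 20.8% of those with no Il13, and in 7.75% and 6.23% of the C1q-positive cells. In both libraries the thinned share of the Il13-expressing cells lay above both other groups, with intervals that did not overlap. The share was higher in Cd8-only Il13-expressing cells (84.3% and 76.5%) than in cells with neither coreceptor (54.2% and 42.1%).

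Il17f, the close relative of Il17a, was found in 63.9% of WT and 58.9% of IL31RAKO Cd3-positive Il13-expressing cells. Il22, a cytokine of type 17 cells that acts on epithelium, was found in 20.3% and 17.9%. After thinning, Il22 was found in 10.3% of WT and 13.6% of IL31RAKO Il13-expressing cells, against 10.5% and 6.11% of cells with no Il13, and the intervals of the 2 groups of cells overlapped in WT but not in IL31RAKO. The difference between the libraries was not tested. At least 1 of Il17a, Il17f and Il22 was present in 82.9% (76.1 to 88.4%) of WT and 75.5% (67.8 to 82.1%) of IL31RAKO cells.

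The other type 2 cytokines were rare beside Il13. Il4, which drives type 2 helper T cells and IgE, was found in 7 WT and 10 IL31RAKO cells. Il5 was found in 5 and 3 cells. Either was present in 12 of 158 WT (7.59%, 3.99 to 12.9%) and 12 of 151 IL31RAKO cells (7.95%, 4.17 to 13.5%), against 0.836% and 1.04% of Cd3-positive cells with no Il13. Of these, 9 WT and 6 IL31RAKO cells also had Il17a, Il17f or Il22. After thinning, Il4 was found in 1.92% of WT and 2.72% of IL31RAKO Il13-expressing cells, against 0.287% and 0.357% of cells with no Il13. Thinned Il5 was found in 1.28% and 0.680%, against 0.0574% and 0.0397%. The intervals overlapped for Il5 in both libraries and for Il4 in WT, but not for Il4 in IL31RAKO. Il5 was more frequent in the Cd3-positive cells that failed only the C1q clause, as given above. Il31, the ligand of the deleted receptor, Il3 and Il9 had no UMI in the 309 Cd3-positive Il13-expressing cells, and the exact upper limits of the share for Il31 were 2.31% of WT and 2.41% of IL31RAKO cells, which limits cells with a captured UMI and not cells that express the gene. Calca, which encodes the neuropeptide CGRP, was found in 14.6% and 13.9% of the cells, against 4.66% and 4.55% of those with no Il13. Its UMIs were uneven, with 53 of 138 WT UMIs in 1 cell.

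**Figure D1:**
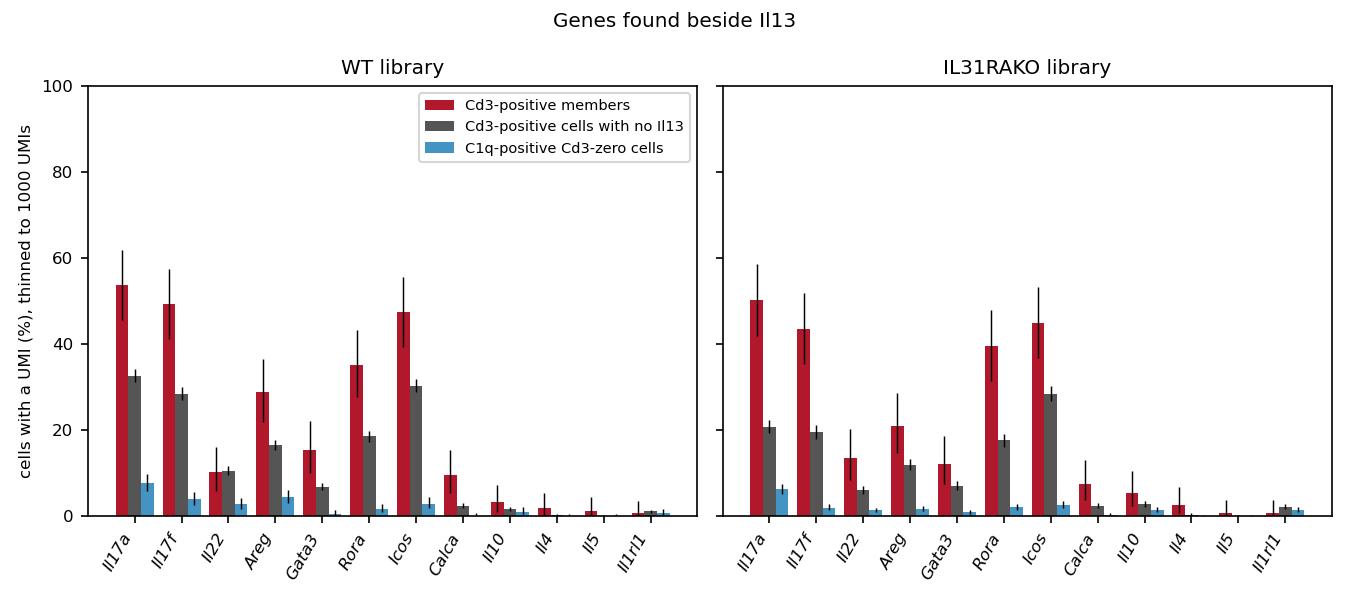
Share of cells with a UMI of each gene after thinning every cell to 1000 UMIs, in Cd3-positive members (the Il13-expressing lymphocytes, red), Cd3-positive cells with no Il13 (grey) and C1q-positive Cd3-zero cells (blue), with exact binomial 95% intervals for each of the 2 libraries. Il17a reached 53.8% and 50.3% of the Il13-expressing cells, while Il4, Il5 and Il1rl1 were rare in every group.

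The number of Il13 UMIs per cell went with some of these genes. Among Cd3-positive cells that passed the exclusions, a Cd8a or Cd8b1 UMI was found in 38.4% of WT cells with no Il13 UMI, 49.0% with 1 and 65.7% with 2. The IL31RAKO shares were 36.4%, 53.0% and 69.8%. Above 2 Il13 UMIs the Cd8 shares were 66.7% and 62.5% in WT, at 3 to 4 and at 5 or more UMIs, and 66.7% and 70.6% in IL31RAKO, so no further difference beyond the intervals was seen. Il17a in WT went from 47.3% at no Il13 UMI to 67.2% at 2 and 87.5% at 5 or more. In IL31RAKO it was 32.6%, 63.5% and 64.7%. Icos, a costimulatory receptor of activated T cells, was found in 48.6% of WT and 47.2% of IL31RAKO cells with no Il13 UMI, and in 92.5% and 94.1% of those with 5 or more. The median depth also went up, from 2485 to 3796.5 UMIs in WT and from 2403 to 3530 UMIs in IL31RAKO, and its part in these shares was not tested.

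**Figure D2:**
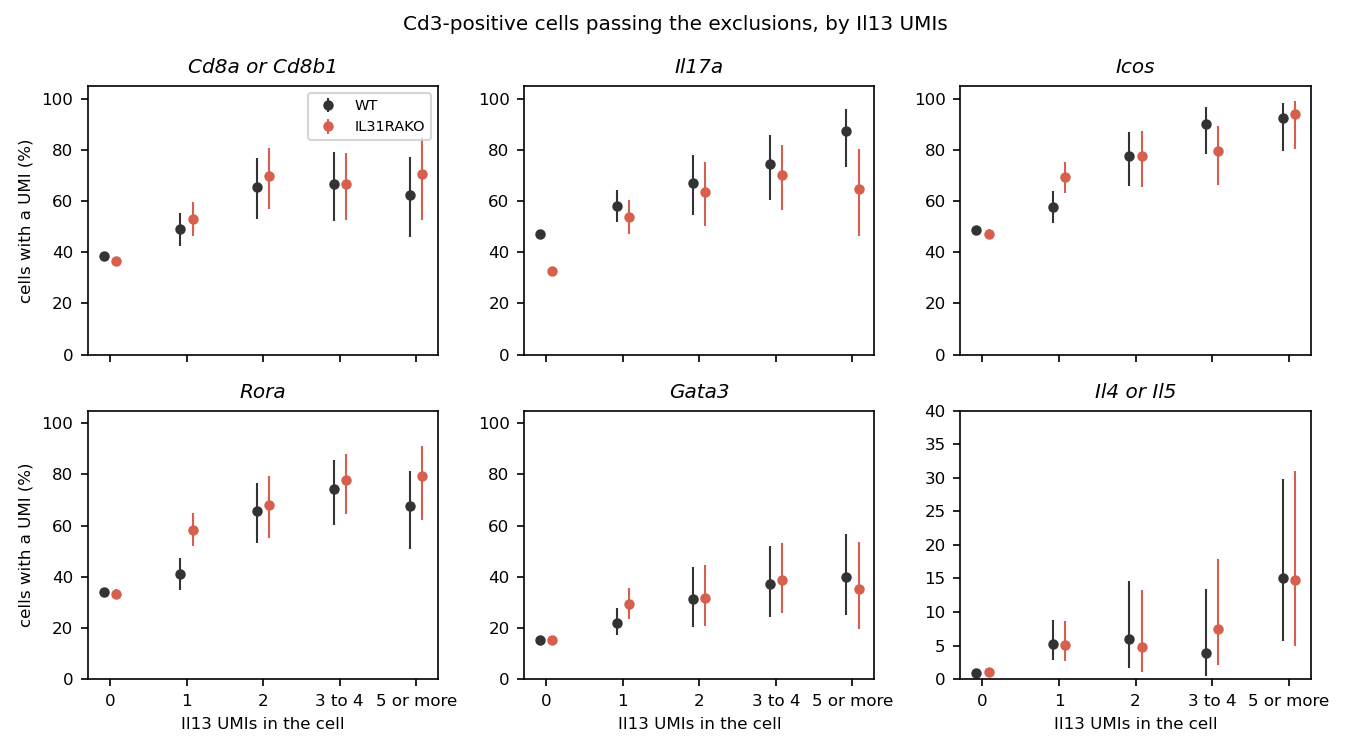
Share of Cd3-positive cells with a UMI of each gene or pair of genes, by the number of Il13 UMIs in the cell, with exact binomial 95% intervals for WT (black) and IL31RAKO (red). The Cd8 share reached 65.7% and 69.8% at 2 UMIs, and Il17a reached 87.5% and 64.7% at 5 or more UMIs.

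Beside the cytokines, Cd3-positive Il13-expressing cells were set against Cd3-positive cells with no Il13 UMI over all genes. Il13 chose the cells, so this is a description with no test. Of 9394 genes with at least 100 UMIs, 73 were at least 2-fold higher in both libraries (0.777%) and 636 at least 2-fold lower (6.77%). The lower genes included markers of other cell types: 6 of 7 dendritic cell markers, 5 of 5 fibroblast markers and 4 of 5 tested neutrophil markers were lower. Whether cells of other types with a Cd3 UMI or free RNA brought these markers was not tested. The dendritic markers summed to 4607 CPM in the WT and 4243 CPM in the IL31RAKO Il13-expressing lymphocytes, against 20655 and 24475 CPM in the cells with no Il13. The count was therefore repeated in cells with Cd8 and no Cd4 on both sides, which was added after seeing the data. There, 18 of 6691 genes were higher (0.269%) and 231 lower (3.45%). With at least 3 Cd3 UMIs on both sides, 20 genes were higher and 304 lower. With free RNA subtracted in all Cd3-positive cells, 3837 genes were higher and 101 lower, so these counts depend strongly on that choice.

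Il1r2, the decoy receptor for IL-1, was among the higher genes in both contrasts. Its level was 597 CPM in the WT and 983 CPM in the IL31RAKO cells, against 183 and 346 CPM without Il13, ratios of 3.26 and 2.84. Within Cd8-only cells the Il1r2 ratios were 3.34 and 3.36. Tff1, a secreted trefoil peptide, had 1149 and 1112 CPM against 296 and 283 CPM, ratios of 3.89 and 3.92, and 2.61 and 2.39 within Cd8-only cells. Asic3, a proton-gated ion channel, had 46 and 34 UMIs, and was 5.68-fold and 7.26-fold higher, or 4.41-fold and 4.59-fold within Cd8-only cells. Rgs16, a regulator of G protein signalling, was 6.55-fold and 4.85-fold higher, and 4.86-fold and 3.48-fold within Cd8-only cells. Stx11, a syntaxin needed for granule release, was 2.78-fold and 2.40-fold higher, and 2.32-fold and 2.24-fold within Cd8-only cells. These 5 genes were past 2-fold in both libraries in either contrast.

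The list of type 2 transcription factors had 16 tested genes, of which 4 were higher and none lower. Its median log2 ratio was 0.62 in WT and 0.83 in IL31RAKO, beside -0.03 and 0.02 over all genes tested. The 4 were Gata3 (2.61-fold in WT and 2.08-fold in IL31RAKO), Rora (2.35 and 2.46), Bhlhe40 (2.45 and 2.89) and Batf (2.51 and 2.48). Bhlhe40 and Batf encode factors that support cytokine production in T cells. Within Cd8-only cells all 4 stayed under 2-fold, at 1.90 and 1.56 for Gata3, 1.63 and 1.70 for Rora, 1.84 and 1.97 for Bhlhe40, and 1.98 and 1.81 for Batf. The intervals of these 8 ratios lay above 1. The rise was not particular to type 2 factors. Over all Cd3-positive cells, the 13 tested type 17 regulators and receptors had median log2 ratios of 0.66 in WT and 0.94 in IL31RAKO. Of these, 2 were higher (Il17a and Batf, which is on both lists) and 0 lower.

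Of 22 tested secreted cytokines and growth factors, 7 were higher and 2 lower. Within Cd8-only cells only 1 of 20 tested, Penk, was higher, and none was lower. Il17a was 2.16-fold and 3.08-fold higher, and 1.51-fold and 2.05-fold within Cd8-only cells. Areg was 2.57-fold and 2.77-fold higher, and 1.82-fold and 1.68-fold within Cd8-only cells. Tgfb1, which encodes the regulatory cytokine TGF-beta 1, was 2.07-fold and 2.05-fold higher. Tnfsf8 and Tnfsf11, the ligands of CD30 and RANK, were 2.09-fold and 2.43-fold, and 2.45-fold and 3.53-fold higher. Penk, which encodes the opioid precursor proenkephalin, was 3.99-fold and 7.65-fold higher, with a single IL31RAKO cell holding 82 of the 163 UMIs. Calca was the other gene of the 7, at 7.15-fold and 6.04-fold. The lower genes were Il6 and Osm.

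Genes of type 1 and cytotoxic lymphocytes went the other way, with 5 of 15 tested genes lower and none higher. Their median log2 ratio was -0.93 in WT and -1.21 in IL31RAKO. Cxcr3, a receptor for interferon-induced chemokines, had 1 WT and 4 IL31RAKO UMIs, and ratios of 0.0579 and 0.241. Ccl5, a chemokine of effector T cells, had 65.2 and 29.3 CPM against 171 and 204 CPM without Il13. Its ratios were 0.382 (0.271 to 0.523) and 0.143 (0.0848 to 0.227), and 18 of its 39 WT UMIs came from 1 cell. With cells chosen on thinned counts the WT ratio of Ccl5 turned to 1.13 and the IL31RAKO ratio was 0.466, so its direction in WT depends on that choice. The granzyme gene Gzmc had ratios of 0.173 and 0.0950, the chemokine Xcl1 0.323 and 0.218, and the receptor Klrd1 0.496 and 0.385. Within Cd8-only cells 4 of 12 tested genes of the list stayed past 2-fold: Ccl5 (0.339 and 0.0824), Gzmc (0.329 and 0.232), Xcl1 (0.146 and 0.0405) and Cxcr3, which had 0 WT and 3 IL31RAKO UMIs.

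Receptors, residency genes and the remaining lists had fewer calls. Over all genes tested, 0.777% were higher and 6.77% lower. Of 22 homing and residency genes none was higher and 4 were lower. Among the lower, Klf2, a factor that keeps T cells in circulation, had ratios of 0.237 and 0.221, and its target S1pr1, the receptor for exit from tissue, had 2 UMIs in each library. Cxcr6, a chemokine receptor of tissue-resident lymphocytes, was found in 94.3% of WT and 88.1% of IL31RAKO Il13-expressing cells, at 1.79-fold and 1.89-fold the level without Il13. Ramp1, a subunit of the CGRP receptor, was 2.22-fold and 2.21-fold higher, and Cish, a feedback gene of cytokine signalling through STAT5, 2.31-fold and 2.44-fold. Within Cd8-only cells neither was called higher, and nor was any of the 6 and 8 tested genes of their lists. Il1rl1, the IL-33 receptor that marks group 2 innate lymphoid cells and type 2 helper T cells, was found in 4.43% and 3.97% of the cells, against 2.51% and 3.58% of C1q-positive cells. After thinning Il1rl1 was found in 1 of 156 WT and 1 of 147 IL31RAKO cells (0.641% and 0.680%), against 0.802% and 1.49% of C1q-positive cells. The intervals (0.0162 to 3.52% and 0.0172 to 3.73%) hold those shares, so Il1rl1 could not be told apart from background. Of 21 alarmin and cytokine receptors 1 was higher (Il1r2) and 2 lower (Il6st and Il12rb2). Of 16 checkpoint and costimulation genes only Pdcd1, an inhibitory receptor, was past 2-fold (2.36 and 2.26), and within Cd8-only cells none of 13 tested was. Of 6 prostaglandin and leukotriene enzymes 3 were lower, of 9 lipid handling genes 2, and of 10 heat shock and stress genes 2. In the same contrast 4 of 6 tested macrophage markers were lower. The part of myeloid RNA in these calls was not tested. None of 16 T cell receptor signalling genes, 18 glycolysis genes and 16 proliferation genes passed in both libraries. Their medians still lay above 0. For proliferation the median log2 ratio was 0.27 in WT and 1.17 in IL31RAKO, with 13 and 15 of 16 genes above 1. Within Cd8-only cells these medians were -0.03 and 0.96. For glycolysis they were 0.51 and 0.59, with 16 of 18 genes above 1 in each library. For T cell receptor signalling they were 0.31 and 0.53.

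**Figure D3:**
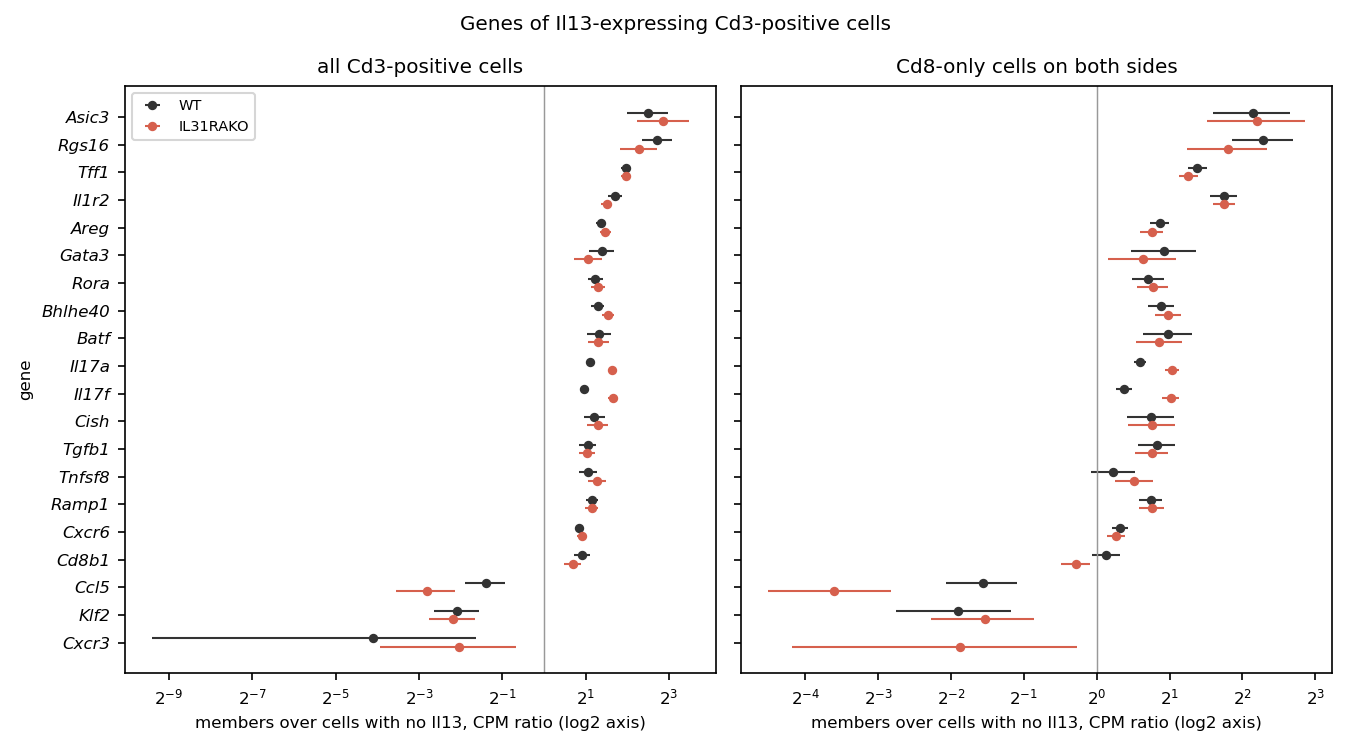
Ratio of CPM in Cd3-positive Il13-expressing cells (members) over cells with no Il13, on a log2 axis, for WT (black) and IL31RAKO (red), in all Cd3-positive cells (left) and in Cd8-only cells on both sides (right), with exact 95% counting intervals. Asic3, Rgs16, Tff1 and Il1r2 stood past 2-fold in both panels, and Ccl5 and Klf2 lay below 1 in both; Cxcr3 in WT Cd8-only cells had 0 UMIs and is not drawn.

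The cells with and without an Il17a UMI were then compared, a split that fixes Il17a itself. Of the Cd3-positive Il13-expressing cells, 118 WT and 100 IL31RAKO cells had Il17a, and 40 and 51 had none. Of 1630 genes tested between them, 9 were at least 2-fold higher with Il17a in both libraries (0.552%) and 9 lower (0.552%), Il17a itself among the former. Il17f was at 185 CPM in WT and 267 CPM in IL31RAKO cells without Il17a and at 1856 and 1756 CPM with it, ratios of 10.1 and 6.57. Tff1 (2.97 and 3.72) and Il1r2 (3.35 and 2.08) were also higher with Il17a. Klrd1, an inhibitory receptor chain of cytotoxic cells, was lower (0.263 and 0.153). Calca was lower too (859 and 416 CPM without Il17a, 65.5 and 173 CPM with it), with 53 of the 107 WT UMIs without Il17a in 1 cell. Il4 was found in 4 of 40 WT and 6 of 51 IL31RAKO cells without Il17a, against 3 of 118 and 4 of 100 with it. Gata3 was found in 42.5% and 43.1% of cells without Il17a and 33.1% and 31.0% of those with it. Bst2 (0.37 and 0.38) and Tsc22d3 (0.47 and 0.49) were lower as well. Ctla2a and Cd7, genes of activated and innate-like lymphocytes, were among the 9 lower genes, with Ctla2a at 1822 and 1342 CPM without Il17a and 452 and 648 CPM with it. Ctla2a and Cd7 did not pass the ranking limits on free RNA and on UMIs held by 1 cell in both libraries. The differences in Il4 and Gata3 rest on few cells and were not tested.

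Between the genotypes, few genes of the Il13-expressing lymphocytes differed. Of 1685 genes with at least 100 UMIs over both libraries, 53 were at least 1.5-fold higher in IL31RAKO (3.15%) and 20 at least 1.5-fold lower (1.19%). Il1r2 went from 586 CPM in WT to 956 CPM in IL31RAKO, a ratio of 1.63 (1.43 to 1.86). The costimulatory receptor Tnfrsf4 (OX40) went from 167 to 296 CPM, a ratio of 1.77 (1.39 to 2.28). Both also differed in Cd3-positive cells with no Il13, with ratios of 1.89 for Il1r2 and 1.75 for Tnfrsf4. Nudt4, a hydrolase of inositol pyrophosphates, was 2.40-fold (1.56 to 3.77) higher on 31 and 76 UMIs, and had a ratio of 1.09 in the cells with no Il13. The ratio of Nudt4 turned to 0.733 when the cells were chosen on thinned counts and was 1.29 at a minimum of 1 Il13 UMI, so no direction is given for it. Gpm6b, a membrane glycoprotein, had the lowest ratio of the named genes, 0.472 (0.320 to 0.687), on 89 and 43 UMIs. Rgs16 had a ratio of 0.630 (0.445 to 0.886). With the cells of the top doublet scores removed, 31 genes were higher, and with at least 3 Il13 UMIs per cell 23.

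Dividing cells and glycolysis stood higher in IL31RAKO as lists, but few of their genes passed the fold. All 7 tested proliferation genes had ratios above 1, with a median log2 ratio of 0.40 beside 0.00 over all genes, and 2 passed 1.5-fold. These were Top2a, which untangles DNA in division (2.13, 1.51 to 3.06), and Hmgb2 (1.53, 1.33 to 1.77). One IL31RAKO cell held 20 of its 107 Top2a UMIs. All 11 tested genes of glycolysis and hypoxia were above 1, with a median of 0.37, and only Pgk1 passed (1.64, 1.28 to 2.10). In Cd3-positive cells alone, where 50 genes were higher (3.07%) and 21 lower (1.29%), 10 of the 11 were above 1. S100a8, a neutrophil gene, was also higher, at 35.6 CPM in WT and 263 CPM in IL31RAKO, with 66 of 166 IL31RAKO UMIs in 1 cell. The myeloid gene Lyz2 was at 452 and 679 CPM. The part of such RNA in the other ratios was not tested.

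Of 12 tested cytokines and growth factors, Penk was higher and Il2, a T cell growth cytokine, lower in IL31RAKO. Penk had a ratio of 2.31 on 69 and 163 UMIs, of which 1 IL31RAKO cell held 82. Il2 had a ratio of 0.502 (0.330 to 0.752) on 74 and 38 UMIs, of which 1 WT cell held 22. Il17a was at 2281 CPM in WT and 2072 CPM in IL31RAKO Il13-expressing lymphocytes, a ratio of 0.908 (0.842 to 0.980). In Cd3-positive cells with no Il13 it was at 1087 and 691 CPM, a ratio of 0.636 (0.616 to 0.655). There, 238 of 9291 genes were higher (2.56%) and 383 lower (4.12%). A few cells carried much of it: 19 of 118 WT and 14 of 100 IL31RAKO cells held 50% of the UMIs. The share of cells with Il17a after thinning had a ratio of 0.935 (0.675 to 1.29). Areg had a ratio of 0.706 (0.634 to 0.786), against 0.640 in the cells with no Il13, and 0.731 (0.447 to 1.18) for its thinned share. Gata3 had a ratio of 0.854 (0.637 to 1.14) and Rora 1.06 (0.903 to 1.24), both within counting error. When the cells were chosen on counts thinned to 1000 UMIs, the ratio of Il17a turned to 2.02 and that of Il17f to 1.51, and with at least 3 Il13 UMIs that of Areg turned to 1.05, so no direction is given for these 3 cytokines. No type 2 transcription factor of 9 tested passed 1.5-fold, and the median log2 ratio of that list was -0.02.

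**Figure D4:**
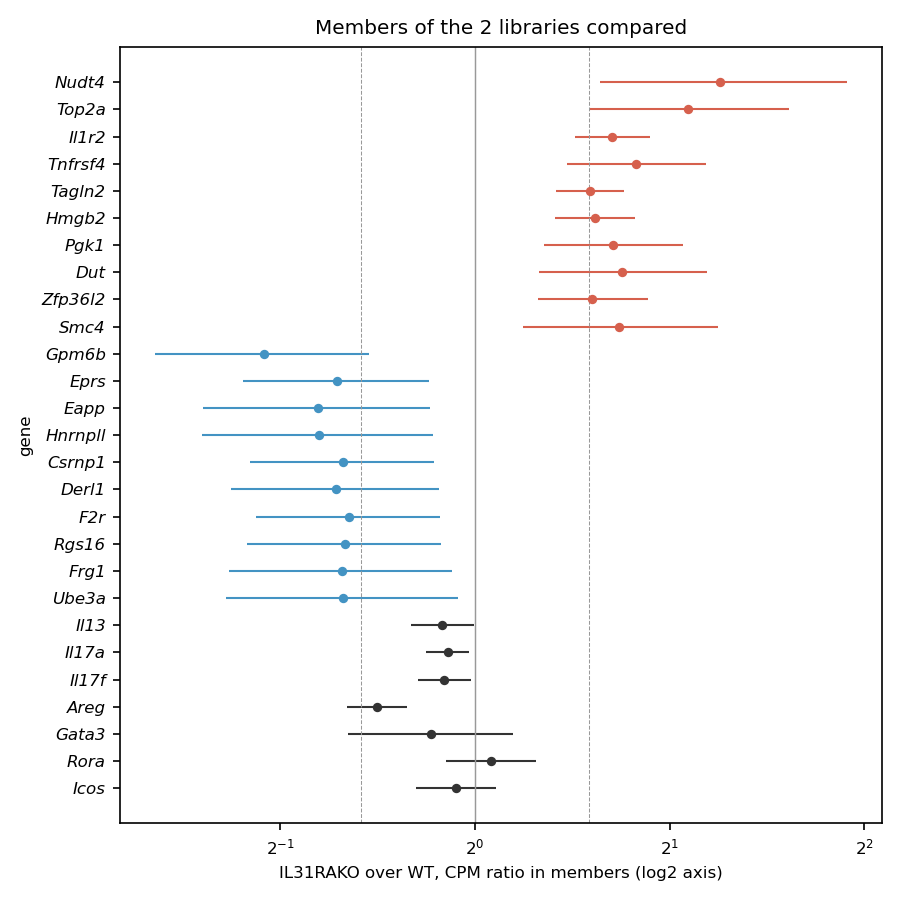
Ratio of CPM in all Il13-expressing lymphocytes (members), IL31RAKO over WT, on a log2 axis with exact 95% counting intervals, for the named higher genes (red), lower genes (blue) and main cytokines and factors (black). Dashed lines mark 1.5-fold; Gpm6b stood at 0.472 and Nudt4 at 2.40, though Nudt4 turned to 0.733 with cells chosen on thinned counts, while Il17a, Gata3 and Rora lay inside the lines.

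The Cd3-zero cells were 5 of 163 in WT (3.07%, 1.00 to 7.01%) and 7 of 158 in IL31RAKO (4.43%, 1.80 to 8.92%). Their depth was 1784 to 9266 UMIs in WT and 1834 to 3880 UMIs in IL31RAKO. Each held 2 to 7 Il13 UMIs. All 12 had a UMI of Gata3, Rora, Il7r or Icos: Rora was found in 8, Il7r, the receptor chain for IL-7 and TSLP, in 10, Icos in 6 and Gata3 in 2. These genes were common in the 309 Cd3-positive cells too, with Rora in 221, Il7r in 160, Icos in 259 and Gata3 in 109. Il1rl1, Klrg1, Nmur1, Ptgdr2 and Arg1, further markers of group 2 innate lymphoid cells, had no UMI in any of the 12, and Il5 and Calca also had none. In the 309 Cd3-positive cells these first 5 were rare too, found in 13, 5, 0, 2 and 2, so their absence from 12 cells decides little. Rxrg, Il9r, Ffar2 and Csf2 had none either. Other markers on that list were present: Areg in 4 cells, Kit in 3, Il17rb and Il2ra in 2 each and Hs3st1 in 1. The markers were mixed, and the name innate lymphoid cell was not given to these cells.

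T cell genes other than Cd3 were thin but present in most. A UMI of Cd247, Cd5, Cd6, Cd28, Lat, Lck or Themis was found in 8 of the 12 Cd3-zero cells, from Lat or Lck in each, and in 305 of 309 Cd3-positive cells. Cd247, Cd5, Cd6 and Cd28 had no UMI in the Cd3-zero cells. Of the type 17 cytokines, Il17a had 2 UMIs in WT and 1 in IL31RAKO Cd3-zero cells, 102 and 57.3 CPM against 2352 and 2129 CPM in the Cd3-positive cells. Il17f had none. Other genes tied to type 17 cells were present, such as Ccr6, a chemokine receptor, with 9 and 4 UMIs. Of 1685 genes tested, 15 were at least 2-fold higher (0.890%) and 49 lower (2.91%) in Cd3-zero cells in both libraries. Il7r was among the higher genes, at 561 and 744 CPM against 229 and 252 CPM. The WT level rests mostly on 1 cell, of 9266 UMIs and a top doublet score, which held 7 Il7r UMIs. The other WT cells held at most 2 each. No higher gene of this contrast passed the limits used for ranking genes. Between the genotypes, 10 of 74 genes were higher (13.5%) and 6 lower (8.11%) in the Cd3-zero cells, on 12 cells.

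Single cells set part of these values. The deepest WT cell, with 9266 UMIs, held 434 UMIs of Cd74 and 114 of H2-Ab1, both of the antigen presentation pathway, and was among the top doublet scores. One IL31RAKO cell held 19 UMIs of Hdc, which makes histamine, 3 of the mast cell protease Cpa3, and 121 of the chemokine Ccl4. That cell had 3 UMIs of Il7r, 4 of Cd7 and 1 of Thy1, and none of Gata3, Rora, Icos, Lat or Lck. It is counted as a lymphocyte by the rule, and its type was not settled. Without these 2 cells, chosen after their values were seen, the remaining 10 had at most 1 Hdc UMI and at most 9 Cd74 UMIs. Ctla2a, a protease inhibitor of activated lymphocytes, was found in 10 of 12 cells at 1326 CPM in WT and 2863 CPM in IL31RAKO, against 737 and 838 CPM in Cd3-positive cells. One WT cell held 18 of the 26 Ctla2a UMIs and 1 IL31RAKO cell 23 of 50, and without these 2 cells the levels were 463 and 1987 CPM, so the WT value rests on 1 cell. A further 4 WT and 17 IL31RAKO cells with at least 2 Il13 UMIs and no Cd3 UMI failed only the C1q clause. In these, Rora was found in 3 and 16, Il17a in 2 and 4, and Il1rl1 and Klrg1 in none.

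**Figure D5:**
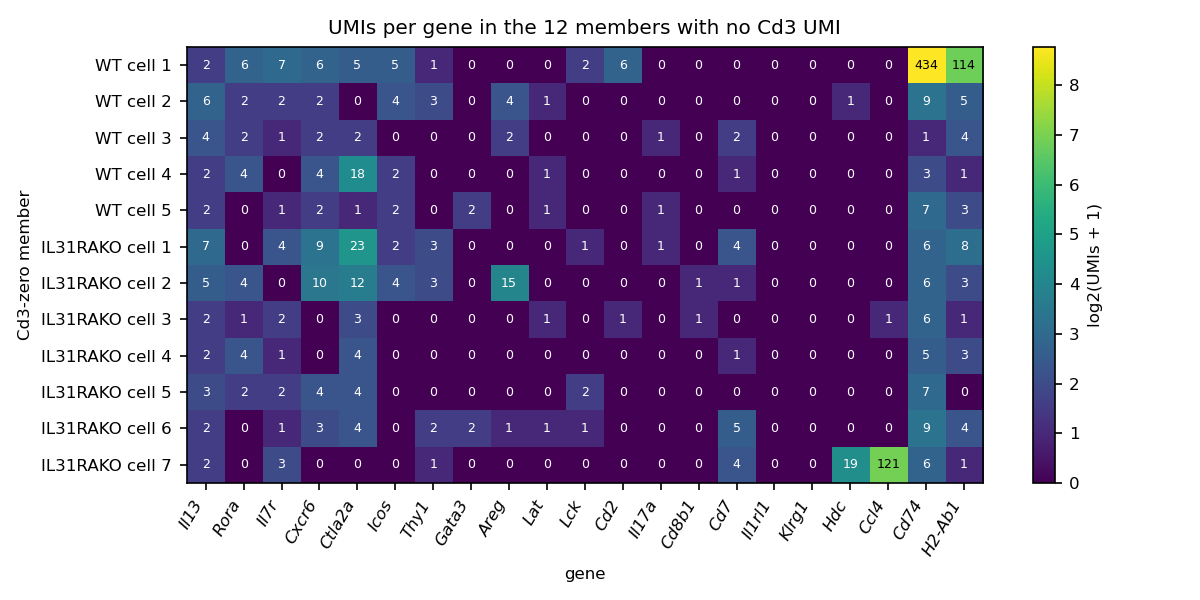
UMIs of each gene (columns) in each of the 12 cells that met the rule and had no Cd3 UMI (rows), with colour as log2(UMIs + 1) and the UMI number printed in each field. Il7r is present in 10 cells and Rora in 8, Il1rl1 and Klrg1 are at 0 in all, and 1 WT cell stands out by 434 UMIs of Cd74 and 1 IL31RAKO cell by 121 UMIs of Ccl4.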

How the data were processed

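Single-cell 3′ RNA libraries (10x, v2) of CD45+ skin cells were measured, 1 library for each of the 2 groups. Raw UMI counts per gene and barcode were deposited by the authors, with Cell Ranger 3.1, Seurat 3.2.2 and mm10 named in the submitters' processing notes. The counting settings and annotation are not given in the sources used here. The 2 libraries held 57000499 (WT) and 71333292 (IL31RAKO) UMIs in all barcodes.

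From these counts, cells with at least 500 UMIs, at least 250 genes and under 10% mitochondrial UMIs were kept. UMIs were summed over cells and scaled to a common total (CPM). Ratios have exact conditional 95% intervals and shares exact Clopper-Pearson 95% intervals. A gene with 0 UMIs on one side was set to a floor of 3 counts. Calls were past 1.5-fold between libraries, or past 2-fold the same way in both libraries between kinds of cells, for genes with at least 100 UMIs, with no test. Genes named are markers, members of fixed lists, and per contrast up to 10 per direction whose interval lies farthest from 1. That ranking leaves out genes below their level in free RNA (barcodes of 10 to 50 UMIs) and genes with over 20% of UMIs in 1 cell. Thinning drew 1000 UMIs per cell, leaving out 2 WT and 4 IL31RAKO Cd3-positive Il13-expressing cells. Doublets were scored with Scrublet in scanpy 1.11.5 (the top 0.8% per 1000 cells) and kept, with removal as an alternative. Other tools were Python 3.11.15, numpy 2.4.6, scipy 1.17.1 and pandas 2.3.3. The ratio script was tested on simulated data. The rule for the cells and all gene lists were chosen with earlier results of these data known.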

Additional observations from a re-analysis of the deposited data

How the results depend on the processing

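No paired analysis was possible because each group had 1 library. The cells are few, 1 library stands for 4 pooled mice, and genotype cannot be told apart from library, so every value below compares these libraries. Depth limits genes under 100 UMIs and the 12 Cd3-zero cells most. The alternatives chosen after seeing the data were up to 2 C1q UMIs, at least 3 Cd3 UMIs, Cd8-only cells on both sides, shared barcodes left out, and Ctla2a without its top cell. An alternative on T cell receptor constant genes was not run, because those genes are not in the gene list used here. Under an alternative that left a named gene with 0 UMIs in an arm, its ratio was not compared with the value in the report. No summary value moved with at least 1000 UMIs per cell, under 5% mitochondrial UMIs, CPM without mitochondrial and ribosomal genes, or shared barcodes left out. Of single-gene ratios between libraries over all alternatives, 151 of 169 stayed within their interval, 14 moved and 4 reversed. Of ratios of Il13-expressing over other cells, 403 of 606 stayed, 201 moved and 2 reversed. Of list medians, 64 of 70 stayed. The cause of a change was not tested except where fewer cells or more genes enter by construction.

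The share of Il13-expressing lymphocytes among kept cells had a ratio of 0.791, which reversed to 1.10 with thinned counts and to 1.08 with up to 2 C1q UMIs. The Il17a share moved in WT to 64.6% at a minimum of 1 Il13 UMI, and with thinning to 58.6% in WT and 57.1% in IL31RAKO. The Cd3-zero share was 10.4% in IL31RAKO at a minimum of 1 Il13 UMI, and 7.94% in WT and 18.6% in IL31RAKO with thinning.

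Genes past 1.5-fold between libraries in all Il13-expressing lymphocytes (53 higher and 20 lower) became 93 and 73 at a minimum of 1 Il13 UMI, 171 and 125 at 50 UMIs per gene, 1795 and 1912 with no filter, 13 and 2 with thinning, and 96 and 64 with up to 2 C1q UMIs. The higher genes were 23 at a minimum of 3 Il13 UMIs and 31 without top doublet scores. The lower genes were 59 with free RNA subtracted and 35 with cells weighted equally. In Cd3-positive cells (50 and 21), the counts were 162 and 123 at 50 UMIs per gene, 1824 and 1864 with no filter, 13 and 5 with thinning, and 96 and 69 with up to 2 C1q UMIs. The higher genes were 24 at a minimum of 3 Il13 UMIs and 30 without top doublet scores. The lower genes were 71 at a minimum of 1 Il13 UMI, 77 with free RNA subtracted and 38 with cells weighted equally.

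In Cd3-zero cells (10 and 6), counts were 3 and 1 at a minimum of 3 Il13 UMIs, 6 and 3 without top doublet scores, 66 and 3 with free RNA subtracted, 21 and 10 at 50 UMIs per gene, and 569 and 621 with no filter. The higher genes alone were 24 at a minimum of 1 Il13 UMI, 4 with thinning and 17 with up to 2 C1q UMIs. Cd3-zero against Cd3-positive cells (15 and 49) gave 92 and 192 at a minimum of 1 Il13 UMI, 31 and 11 at 3, 2 and 7 with thinning, and 25 and 88 with up to 2 C1q UMIs. The lower genes were 31 without top doublet scores and 101 with free RNA subtracted. The higher genes were 58 at 50 UMIs per gene and 297 with no filter.

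Il13-expressing against other Cd3-positive cells (73 and 636) gave 3837 and 101 with free RNA subtracted, 192 and 996 with up to 2 C1q UMIs, 20 and 304 with at least 3 Cd3 UMIs, and 18 and 231 in Cd8-only cells. The higher genes were 26 at a minimum of 1 Il13 UMI, 41 with cells weighted equally, 112 at 50 UMIs per gene and 239 with no filter. The lower genes were 111 with thinning.

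Between libraries, Areg reversed to 1.05 at a minimum of 3 Il13 UMIs. With thinning, Nudt4 reversed to 0.733, Il17a to 2.02 and Il17f to 1.51, and Ccl5 in WT Il13-expressing over other cells to 1.13. In Cd8-only cells, where the gene itself chose both sides, Cd8b1 in IL31RAKO was at 0.821.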
